A study of Mus musculus with 6 samples.

Results

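The values of 40 genes that type I interferon is known to induce were followed through femur libraries of mice after phlebotomy (removal of blood) and of control mice. They were chosen by name as a gene module, and the rule itself used no values of the comparison. The choice was made with earlier results of these data known, so the list is not independent of them. All 40 members were found among the 55421 genes of the count table. Of these, 39 matched by the deposited gene name and Ddx58 by its gene ID, under which the deposited name is Rigi. All 40 also passed the filter on low counts, which left 18838 genes in the test.

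The series compared 3 libraries labelled phlebotomy with 3 labelled control, and its title names erythroferrone, a hormone that lowers hepcidin, in stress erythropoiesis. All mice were C57BL/6, 12 weeks old and labelled WT. The RNA came from bone fractions enriched for osteocytes, the cells buried in the mineral matrix. The labels give no volume, no time after the blood loss, and no number of animals behind a library. The p-values therefore measure the spread between these libraries, which may be technical. Libraries are called phlebotomy 1, 2 and 4 and control 1, 2 and 4 after the numbers of the deposited columns.

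Type I interferons are cytokines that cells release on sensing foreign or misplaced nucleic acid. They bind a receptor made of Ifnar1 and Ifnar2, whose kinases Jak1 and Tyk2 phosphorylate Stat2. Stat2 joins Irf9 in a complex that binds interferon-stimulated response elements and switches on antiviral genes, several of which sense RNA and so feed the pathway. Marrow next to bone holds monocytes, macrophages and plasmacytoid dendritic cells that respond to or make interferon, and interferon is known to restrain osteoclast formation and to act on blood stem cells.

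The start regions of several members carry a short letter pattern that resembles the core of that response element. The pattern searched was GAAA, then NN, then GAAA, where N is any base, on both strands, in RefSeq promoters of GRCm38.p6 that run from 250 bases before the annotated start to 50 bases after it. Read along the gene, a match on the other strand appears as its reverse complement, which begins with TTTC. The promoter table held 30 of the 40 members, and 16 of the 30 (53.3%) had a match, against 1079 of 27025 genes in the table (3.99%). More than 1 match was present in 9 of the 16. A second pattern, TTC, then NNN, then GAA, which reads the same on both strands and resembles the gamma-activated sequence, was found in 4 of 30 members (13.3%), against 9.55% of all genes. A match of this kind is a string of letters and was not tested as a binding site.

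The sequences below are shown because they belong to genes whose values follow, from Ifit3 and Ifit1, which had the largest log2 fold changes, to Stat2, which had one of the smallest. Each is written 5′ to 3′ along its gene, and capitals mark the matched letters on either strand. The whole promoter is given for Ifit1, and windows of 40 bases for the others.
Ifit1 (chr19:34640639-34640938, plus strand): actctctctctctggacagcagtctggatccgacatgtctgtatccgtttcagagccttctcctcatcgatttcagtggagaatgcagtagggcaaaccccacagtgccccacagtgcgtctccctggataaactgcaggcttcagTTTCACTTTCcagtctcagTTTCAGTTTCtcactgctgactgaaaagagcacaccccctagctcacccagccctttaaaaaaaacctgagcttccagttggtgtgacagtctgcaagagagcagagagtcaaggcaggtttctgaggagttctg
Ifit3 (chr19:34583358-34583397, plus strand): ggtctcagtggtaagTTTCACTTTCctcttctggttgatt
Ifit3b (chr19:34607754-34607793, plus strand): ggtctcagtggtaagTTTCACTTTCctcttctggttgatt
Isg15 (chr4:156200872-156200911, minus strand): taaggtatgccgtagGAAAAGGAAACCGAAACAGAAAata
Oas1a (chr5:120907521-120907560, minus strand): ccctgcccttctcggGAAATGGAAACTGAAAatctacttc
Oas1g (chr5:120887607-120887646, minus strand): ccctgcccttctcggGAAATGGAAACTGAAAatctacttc
Cxcl10 (chr5:92349078-92349117, minus strand): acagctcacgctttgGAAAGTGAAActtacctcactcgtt
Ddx60 (chr8:61928019-61928058, plus strand): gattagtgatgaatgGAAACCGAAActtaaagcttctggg
Rsad2 (chr12:26456548-26456587, minus strand): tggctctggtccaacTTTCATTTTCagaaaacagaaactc
Stat2 (chr10:128270261-128270300, plus strand): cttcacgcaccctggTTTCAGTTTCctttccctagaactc

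Isg15 held 3 overlapping matches in 1 run, which began 78, 72 and 66 bases before the start. The windows of Ifit3 and Ifit3b were letter for letter the same, and so were those of Oas1a and Oas1g, so these pairs do not count as separate promoters. Members with a match had a median log2 fold change of 0.77 between phlebotomy and control (n = 16 genes), members without one 0.67 (n = 14), and members that the table did not hold 0.68 (n = 10). A match was present in genes with large differences and in Stat2, Oas3 and Ddx58, whose log2 fold changes were 0.13, 0.15 and 0.29. In the map of the matches, those of Ifih1, Eif2ak2 and Ddx58 lay after the start, as did 1 of the matches of Trim30a.

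**Figure D1:**
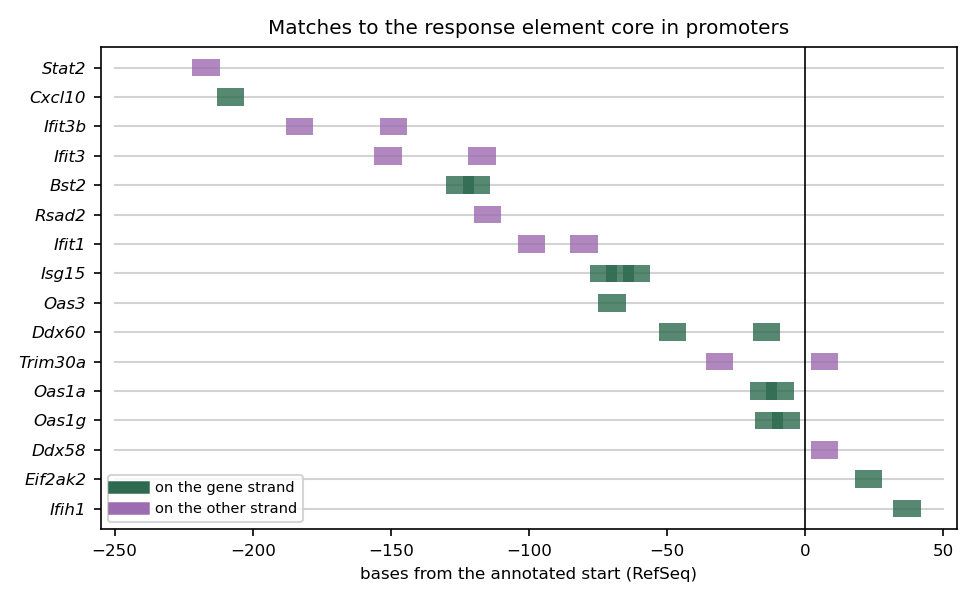
Position of each match to the GAAA, NN, GAAA pattern in the promoters of the 16 members that had one, in bases from the annotated start (0, vertical line), with grey lines for the 300 bases searched. Green boxes are matches on the gene strand, purple boxes matches on the other strand, and darker stretches are overlapping matches, as in Isg15 and Oas1a.

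Before the members, the libraries themselves differed in ways that bear on every value here. Gene counts were 14853290 to 15866385 per phlebotomy library and 11219243 to 19015588 per control library, so that 3 counts stood for 0.164 to 0.296 CPM (counts scaled to library size, here with TMM factors). Phlebotomy 2 stood apart from its group: on the first principal component, which held 41.8% of the variance, it scored -7.8, while phlebotomy 1 and 4 scored 54.9 and 40.2, and the controls lay from -51.4 to -16.6. Its Erfe level, 4.69 CPM, was that of the other phlebotomy libraries (4.19 and 4.68 CPM), against at most 0.592 CPM in a control. Dmp1, an osteocyte matrix gene, was present in all libraries, at 11400, 22200 and 21300 CPM after phlebotomy and 43100, 41300 and 18800 CPM in control. Genes for olfactory and vomeronasal receptors, which are not typical of bone, summed to 426, 247 and 642 CPM in phlebotomy 1, 2 and 4 and to 202 to 231 CPM in control. Counts of members and the fold changes of each role are therefore given with and without phlebotomy 2, and the plot of fold changes shows both for every member. Phlebotomy 2 was singled out by its values in these data, and in most members it lay below phlebotomy 1 and 4. Leaving it out thus tends to widen differences and lower p-values. Every call and adjusted p-value without phlebotomy 2 depends on that choice and is not independent support.

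The interferon-stimulated genes were higher on average after phlebotomy, and the difference lay in phlebotomy 1 and 4. All 40 members had a log2 fold change above 0, as did 49.8% of all genes tested. Their median log2 fold change was 0.67, a 1.59-fold higher level, where the median over all genes was -0.003. The log2 fold change was above 1 in 11 members (27.5%), against 3.74% of all genes. No member passed edgeR's quasi-likelihood test after Benjamini-Hochberg adjustment over all genes, in which 0.0159% of genes were called higher and 0.0% lower. The smallest member p was 0.000469, with an adjusted p of 0.139, for Cmpk2. At an unadjusted p under 0.05, 28 members (70.0%) were higher and 0 lower, against 7.01% and 9.42% of all genes. DESeq2 called 9 members higher (22.5%, against 0.637% of genes) and 0 lower (against 1.68%), and limma-voom called 0 (against 0.0%). Without phlebotomy 2, edgeR called 24 members higher (60.0%, against 1.75% of genes) and 0 lower (against 2.99%). These calls depend on leaving out a library that was singled out by its values.

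Summed over the 40 members, the level was 2740, 1330 and 2130 CPM in phlebotomy 1, 2 and 4, and 1150, 1320 and 1360 CPM in control 1, 2 and 4. Thus phlebotomy 1 and 4 lay above every control, and phlebotomy 2 lay inside the control range. Against the control mean, the median member stood at a ratio of 2.09 in phlebotomy 1, 1.04 in phlebotomy 2 and 1.69 in phlebotomy 4. Both phlebotomy 1 and phlebotomy 4 exceeded all controls in 35 members (87.5%), against 21.6% of all genes. In 28 members phlebotomy 1 was highest and phlebotomy 4 second, and in 7 the order of these was turned round. Phlebotomy 2 lay inside the control range in 23 members, a share (57.5%) near that of all genes (53.3%). It lay above that range in 11 members (27.5%, against 21.3% of all genes) and below it in 6. All phlebotomy libraries lay above all controls in 10 members (25%), against 10.1% of all genes. These were Oas1a, Oasl2, Ifit2, Ifi44, Isg15, Rtp4, Cmpk2, Epsti1, Ddx60 and Cxcl10. In bulk samples such as these, a change in the number of cells of a type and a change in RNA per cell cannot be told apart.

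**Figure D2:**
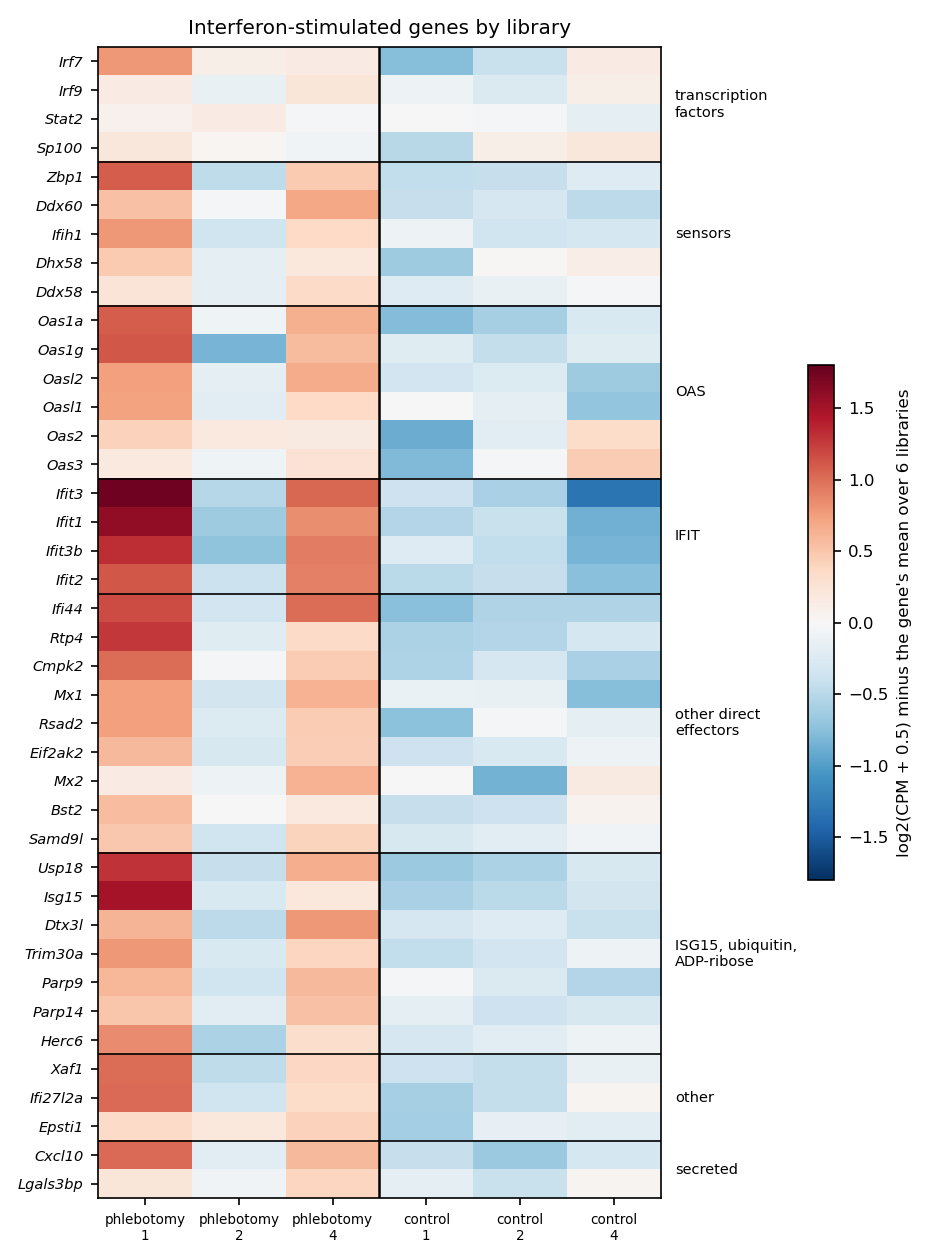
Level of each of the 40 members in each library, as log2(CPM + 0.5) minus the gene's mean over the 6 libraries, with members in rows by role and phlebotomy columns left of control columns. Phlebotomy 1 and 4 are mostly red (above the gene's mean) and the controls mostly blue, phlebotomy 2 looks like the controls, and the rows of Irf9, Stat2 and Sp100 are pale.

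The IFIT family held the largest differences. Its proteins bind foreign RNA, and Ifit1 is known to recognise RNA that lacks the methylated cap of the host's own messages. Ifit3 was at 91.8, 18.6 and 55.9 CPM in phlebotomy 1, 2 and 4, and at 20.6, 17.9 and 10.5 CPM in control 1, 2 and 4. Phlebotomy 1 and 4 stood apart, while phlebotomy 2 lay below control 1. The log2 fold change came to 1.77 ± 0.62 (SE; edgeR adjusted p 0.263) over all libraries, and to 2.15 (edgeR adjusted p 0.00679) without phlebotomy 2.

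Ifit1 was at 167, 34.9 and 98.8 CPM after phlebotomy and at 38.1, 41.4 and 30 CPM in control. Again phlebotomy 2 lay inside the control range and the others far outside it. The log2 fold change was 1.46 ± 0.56 (SE; edgeR adjusted p 0.287), and 1.83 without phlebotomy 2 (edgeR adjusted p 0.00606). Ifit2 was at 101, 35.4 and 87.5 CPM after phlebotomy and at 33.0, 34.6 and 27.4 CPM in control. Here the groups did not overlap, although phlebotomy 2 exceeded control 2 only narrowly. Ifit2 had a log2 fold change of 1.24 ± 0.32 (SE; edgeR adjusted p 0.162) and was called higher by DESeq2 (adjusted p 0.00761). Ifit3b was at 17.4, 3.84 and 13 CPM after phlebotomy and at 5.62, 4.75 and 3.49 CPM in control, a log2 fold change of 1.32 ± 0.45 (SE). These 4 genes lie in 1 stretch of chromosome 19, from 34550694 to 34650009 (GRCm38), with a gap of 27.47 kb between Ifit3b and Ifit1. Ifit3 and Ifit3b are near-identical copies. Of all 126-base windows of their transcripts, 23.2% for Ifit3 and 20.1% for Ifit3b occur in the other gene, so reads could be split between them. Of the windows of Ifit1, 2.17% occur in Ifit1bl2.

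The OAS family makes short oligoadenylate chains on meeting double-stranded RNA, which activate the RNA-cutting enzyme RNase L. Oas1a was at 23.7, 10.3 and 17.1 CPM after phlebotomy and at 6.11, 6.99 and 8.87 CPM in control. Every phlebotomy library lay above every control, phlebotomy 2 included. The log2 fold change came to 1.21 ± 0.28 (SE; edgeR adjusted p 0.139, DESeq2 adjusted p 0.00967). Its near copy Oas1g was low, at 4.49, 0.782 and 2.91 CPM after phlebotomy and 1.48, 1.2 and 1.48 CPM in control. For Oas1g phlebotomy 2 was the lowest library of all. Oas1a shares 36.1% of its 126-base windows with Oas1g, so the values of this pair are uncertain. Oasl2 was at 40.1, 21.3 and 38.2 CPM after phlebotomy and at 18.8, 20.1 and 15.3 CPM in control (log2 fold change 0.88 ± 0.24 SE, edgeR adjusted p 0.160, DESeq2 adjusted p 0.0323). Oasl1, which in mouse is known to hold back translation of Irf7 mRNA, had a log2 fold change of 0.61 ± 0.24 (SE). The remaining members of the family had smaller differences, Oas2 of 0.45 ± 0.31 and Oas3 of 0.15 ± 0.28 on the log2 scale (SE). Oas3 was highest in control 4, at 15.5 CPM, and its log2 fold change was -0.13 without control 1.

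The other direct effectors include GTPases of the Mx family and enzymes that alter nucleotides or viral budding, and 7 of these 9 members had an unadjusted p under 0.05. Ifi44 was at 17.1, 5.67 and 15.2 CPM after phlebotomy and at 4.14, 4.86 and 4.84 CPM in control. The groups did not overlap, and the log2 fold change was 1.45 ± 0.34 (SE; edgeR adjusted p 0.139, DESeq2 adjusted p 0.00771). Cmpk2 is a mitochondrial nucleotide kinase that lies 12.75 kb from Rsad2 on chromosome 12, on the opposite strand. Rsad2 (viperin) turns CTP into a chain-terminating analogue that blocks viral polymerases. Cmpk2 was at 97.2, 47.3 and 66.4 CPM after phlebotomy and at 32.7, 39.0 and 32.1 CPM in control (log2 fold change 1.02 ± 0.23 SE, DESeq2 adjusted p 0.00771). Rsad2 was at 552, 279 and 458 CPM after phlebotomy and at 199, 323 and 296 CPM in control (log2 fold change 0.66 ± 0.25 SE, edgeR adjusted p 0.229). Of these neighbours, Cmpk2 separated the groups and Rsad2 did not, because phlebotomy 2 lay between the Rsad2 levels of control 1 and control 4.

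Rtp4, a chaperone of membrane receptors that also acts against viruses, was at 91.4, 32.2 and 47.9 CPM after phlebotomy and at 25, 25.8 and 30.1 CPM in control. Its groups did not overlap either (log2 fold change 1.08 ± 0.31 SE, edgeR adjusted p 0.178, DESeq2 adjusted p 0.0230). Mx1 and Mx2 are dynamin-like GTPases that trap viral particles, and many inbred laboratory strains carry defective copies; the annotation classes Mx2 as a polymorphic pseudogene. Mx1 was at 12.3, 5.60 and 11.4 CPM after phlebotomy and at 6.61, 6.5 and 4.03 CPM in control (log2 fold change 0.78 ± 0.31 SE). Mx2 overlapped more broadly, with a log2 fold change of 0.49 ± 0.32 (SE). Eif2ak2 (PKR), the kinase that stops translation on double-stranded RNA, had a log2 fold change of 0.55 ± 0.23 (SE). Bst2 (tetherin), which holds budding virus at the cell surface, had 0.49 ± 0.20 and Samd9l 0.40 ± 0.21 (log2 fold change, SE). For Samd9l phlebotomy 2 was the lowest library, at 127 CPM, against 134 to 156 CPM in control.

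The ISG15 group covers a ubiquitin-like tag, the enzymes that attach and remove it, and ligases and ADP-ribosyltransferases of the antiviral response. Isg15, the tag itself, was at 173, 50 and 69.1 CPM after phlebotomy and at 40.3, 43.1 and 48.2 CPM in control. All phlebotomy libraries exceeded all controls, but phlebotomy 1 alone made most of the difference, and the log2 fold change was 1.15 ± 0.43 (SE; edgeR adjusted p 0.263) and 0.46 without phlebotomy 1 (edgeR adjusted p 0.626). Usp18 removes Isg15 from its targets and blocks the interferon receptor, and thus is a brake on the pathway. Usp18 was at 49.2, 14.7 and 31.3 CPM after phlebotomy and at 12.2, 13.1 and 16.0 CPM in control. Phlebotomy 2 was below control 4, and the log2 fold change was 1.2 ± 0.35 (SE; edgeR adjusted p 0.187, DESeq2 adjusted p 0.0204). Herc6, the mouse ligase that attaches Isg15, had a smaller one of 0.53 ± 0.29 (SE; edgeR adjusted p 0.378).

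Dtx3l and Parp9 work as one ubiquitin ligase complex, and their genes overlap head to head on chromosome 16. Dtx3l was at 44.7, 20.9 and 50.2 CPM after phlebotomy and at 23.5, 24.8 and 21.9 CPM in control. Parp9 was at 42.5, 21.6 and 41.8 CPM after phlebotomy and at 27.3, 23.1 and 19.2 CPM in control. In both genes phlebotomy 1 and 4 were alike and phlebotomy 2 was near the lowest library. Their log2 fold changes were 0.72 ± 0.26 and 0.61 ± 0.25 (SE), but their exons overlap on opposite strands and the libraries do not keep strand, so part of the reads cannot be told apart. Parp14, a neighbour that attaches ADP-ribose, had 0.60 ± 0.21, and Trim30a 0.65 ± 0.24 (log2 fold change, SE). Without phlebotomy 2, edgeR called Isg15, Usp18, Dtx3l, Parp9, Parp14 and Trim30a higher, with adjusted p from 0.0122 for Usp18 to 0.0395 for Parp9, and not Herc6 (adjusted p 0.0563).

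**Figure D3:**
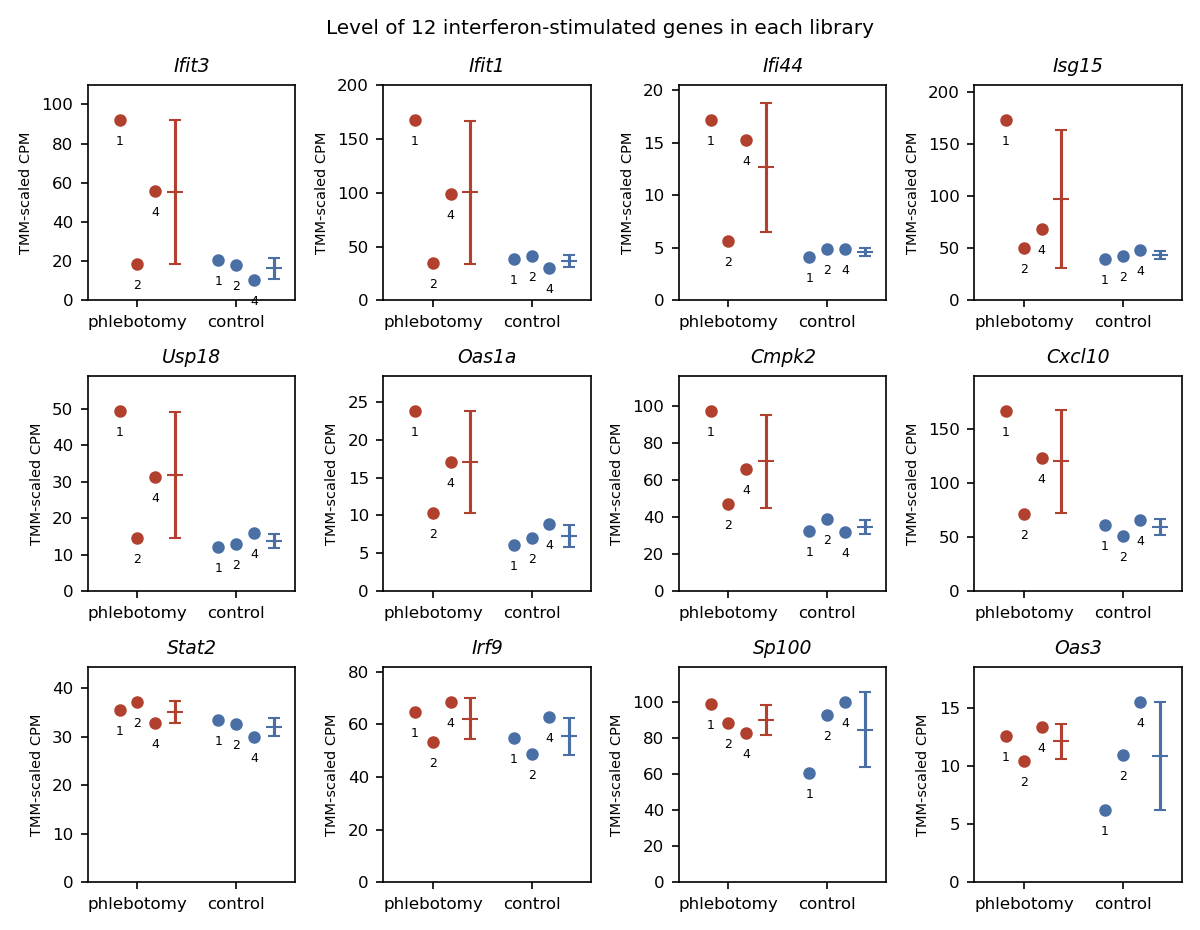
TMM-scaled CPM of 12 members in each library (points, with the library number), with the mean and SD of 3 libraries per group beside them, phlebotomy left of control and each axis starting at 0. In the upper 8 panels phlebotomy 1 and 4 lie above the controls and phlebotomy 2 close to them, and in the lower row (Stat2, Irf9, Sp100 and Oas3) the groups overlap.

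Over 5 sensors of nucleic acid the median log2 fold change was 0.60, and 0 of them were called by edgeR or DESeq2 with all libraries. Zbp1, which senses Z-form nucleic acid and can trigger cell death, was at 22.6, 7.43 and 14.7 CPM after phlebotomy and at 7.49, 7.65 and 8.80 CPM in control (log2 fold change 0.90 ± 0.32 SE, edgeR adjusted p 0.217). Phlebotomy 2 was the lowest of the 6 libraries. Ddx60, a helicase, was at 10.5, 7.04 and 11.9 CPM after phlebotomy and at 5.23, 5.68 and 5.04 CPM in control. Its groups did not overlap (log2 fold change 0.88 ± 0.25 SE, edgeR adjusted p 0.169, DESeq2 adjusted p 0.0555). The cytosolic RNA sensors Ifih1 (MDA5), Ddx58 (RIG-I) and Dhx58 (LGP2) had log2 fold changes of 0.60 ± 0.25, 0.29 ± 0.19 and 0.33 ± 0.26 (SE). Of these, Ifih1 had an unadjusted p under 0.05 (0.0296).

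The transcription factors that carry the signal had the lowest median log2 fold change of the roles, 0.15. Irf7, which amplifies interferon production and is itself induced by it, was at 72.5, 45.5 and 46.7 CPM after phlebotomy and at 24.5, 31.7 and 46.6 CPM in control (log2 fold change 0.68 ± 0.24 SE, edgeR adjusted p 0.219). Phlebotomy 2 lay below control 4, so the groups overlapped. Stat2 was at 35.4, 37.0 and 32.7 CPM after phlebotomy and at 33.5, 32.5 and 29.9 CPM in control (log2 fold change 0.13 ± 0.17 SE), the sole member with its highest value in phlebotomy 2. Irf9 was at 64.6, 53.4 and 68.3 CPM after phlebotomy and at 54.8, 48.7 and 62.8 CPM in control (log2 fold change 0.16 ± 0.17 SE). For both Stat2 and Irf9 the libraries of the groups interleave. Sp100, a component of nuclear bodies, was at 98.9, 88.1 and 82.6 CPM after phlebotomy and at 60.7, 92.8 and 99.5 CPM in control (log2 fold change 0.09 ± 0.19 SE). Its log2 fold change was -0.11 without control 1, so the sign rested on that library.

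Of the secreted products, Cxcl10, a chemokine that draws T and NK cells through Cxcr3, was at 166, 71.1 and 123 CPM after phlebotomy and at 61.5, 51.1 and 65.7 CPM in control. The groups did not overlap, and the log2 fold change was 1.01 ± 0.25 (SE; edgeR adjusted p 0.145, DESeq2 adjusted p 0.0131). Lgals3bp, a secreted glycoprotein, had a log2 fold change of 0.35 ± 0.19 (SE). Xaf1, which promotes cell death, was at 25.5, 8.99 and 16.3 CPM after phlebotomy and at 9.57, 9.18 and 11.4 CPM in control (log2 fold change 0.76 ± 0.30 SE). Phlebotomy 2 was again the lowest library. Ifi27l2a had a log2 fold change of 0.75 ± 0.30 and Epsti1 0.66 ± 0.23 (SE). Epsti1 was even across the phlebotomy libraries, at 10.7, 9.51 and 11.2 CPM after phlebotomy and 5.23, 7.38 and 7.12 CPM in control, and its log2 fold change was 0.68 without phlebotomy 2.

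**Figure D4:**
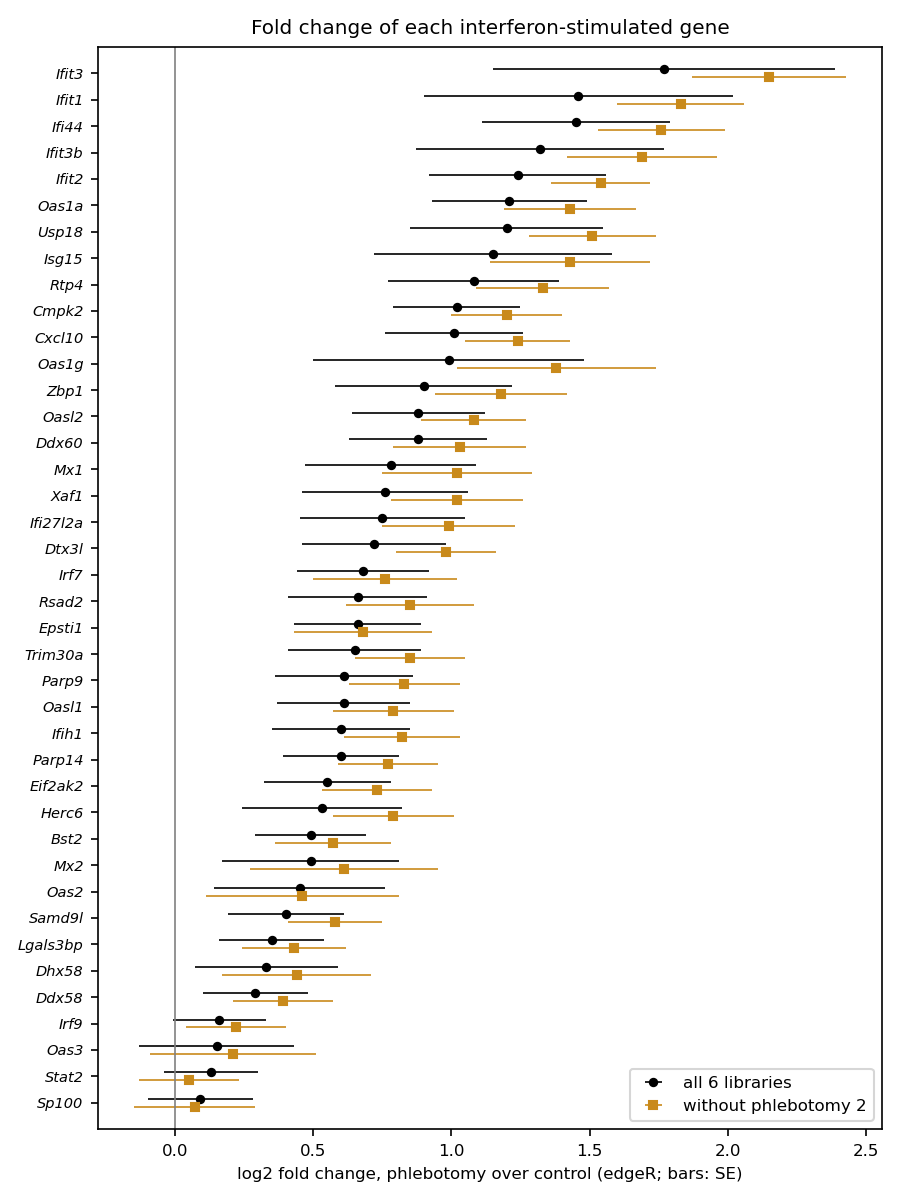
Log2 fold change of each member, phlebotomy over control, from edgeR with all 6 libraries (black circles) and without phlebotomy 2 (orange squares), with bars for the SE and members ordered by the first value. All black circles lie above 0, from 0.09 for Sp100 to 1.77 for Ifit3, and 38 of 40 members have a larger value without phlebotomy 2.

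Leaving out phlebotomy 2 raised the median log2 fold change of the members to 0.85, and leaving out phlebotomy 1 lowered it to 0.46. Without phlebotomy 1, edgeR called 0 members (against 0.0% of genes). By role, the median log2 fold change was 1.76 without phlebotomy 2 and 1.39 with it for the IFIT family, and 0.94 and 0.74 for the OAS family. It was 0.85 and 0.66 for the other effectors, 0.85 and 0.65 for the ISG15 group, 0.82 and 0.60 for the sensors, and 0.15 in both fits for the transcription factors. It was 0.83 and 0.68 for the secreted products and 0.99 and 0.75 for Xaf1, Ifi27l2a and Epsti1. The calls without phlebotomy 2 included all 4 IFIT genes, 3 of 6 OAS members, 6 of 7 of the ISG15 group, 5 of 9 other effectors, 3 of 5 sensors, Cxcl10, Xaf1 and Ifi27l2a, and 0 of 4 transcription factors. DESeq2 without phlebotomy 2 called 27 members higher (67.5%, against 2.51% of genes) and 0 lower (against 9.45%). The DESeq2 calls with all libraries were Oas1a, Oasl2, Ifit2, Ifit3b, Ifi44, Usp18, Rtp4, Cmpk2 and Cxcl10. Per kilobase of transcript, Rsad2 stood at 103 CPM per kb after phlebotomy and at 65.1 CPM per kb in control, the highest control level of the 40. Next came Isg15, at 129 CPM per kb after phlebotomy and 58.0 in control, and Ifi27l2a, at 87.9 after phlebotomy and 52.2 in control. The lowest was Oas1g, at 1.38 CPM per kb after phlebotomy and 0.701 in control, so Isg15 and Oas1g, with log2 fold changes of 1.15 and 0.99, stood near opposite ends of this order.

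Transcripts of the interferons themselves were nearly absent. All 17 type I interferon genes together had 29, 14 and 25 counts in phlebotomy 1, 2 and 4, and 4, 13 and 23 counts in control 1, 2 and 4, and none passed the filter on low counts. Ifnb1, the interferon that most cell types can make, had 19, 8 and 7 counts after phlebotomy and 2, 6 and 10 in control. The groups overlapped, and at a few counts a difference in the ligands was not detectable at this depth.

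The receptor and its signalling genes did not share the members' direction. Of the 11 genes in that list, 2 had a log2 fold change above 0 (18.2%), and the median was -0.25. Ifnar1 was at 62.5, 63.7 and 70.9 CPM after phlebotomy and at 67.9, 64.8 and 75.3 CPM in control (log2 fold change -0.08 ± 0.16 SE). Ifnar2, Jak1 and Tyk2 had log2 fold changes of -0.25, -0.31 and -0.24, and the phosphatases Ptpn6 and Ptpn11 had 0.24 and -0.29. Stat3, which serves other cytokines, was lower in every phlebotomy library, at 261, 427 and 376 CPM, against 601, 529 and 559 CPM in control (log2 fold change -0.67 ± 0.20 SE, edgeR adjusted p 0.178). Its target Socs3 was at 284, 420 and 303 CPM after phlebotomy and 506, 460 and 526 CPM in control (log2 fold change -0.57 ± 0.19 SE, edgeR adjusted p 0.202). Without phlebotomy 2, edgeR called Stat3 and Socs3 lower (adjusted p 0.0437 and 0.0406). Socs1, which inhibits the kinases of the interferon receptor, and Pias1 had log2 fold changes of -0.33 and -0.18.

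A wider list of interferon-induced genes leaned the same way with smaller values. Of 66 such genes tested, 52 had a log2 fold change above 0 (78.8%), the median was 0.33, and 19 had an unadjusted p under 0.05 in the higher direction (28.8%) and 0 in the lower. edgeR called 0 of them, DESeq2 called 4 higher, and edgeR without phlebotomy 2 called 10. Ccl12, a monocyte-attracting chemokine, was at 7.67, 4.23 and 4.55 CPM after phlebotomy and at 2.66, 1.37 and 1.21 CPM in control (log2 fold change 1.69 ± 0.36 SE, edgeR adjusted p 0.139). Ifitm1, a membrane protein that blocks viral entry, was at 64.6, 25.8 and 58.5 CPM after phlebotomy and at 19.2, 20.1 and 26.7 CPM in control (log2 fold change 1.17 ± 0.29 SE, DESeq2 adjusted p 0.00986). Ccl12 separated the groups with phlebotomy 2 included, and Ifitm1 did not. Tlr3, an endosomal receptor for double-stranded RNA, was at 5.45, 4.10 and 6.89 CPM after phlebotomy and at 2.96, 1.48 and 2.28 CPM in control (log2 fold change 1.32 ± 0.32 SE, DESeq2 adjusted p 0.0234). Phf11b had a log2 fold change of 1.19 ± 0.35 (SE, DESeq2 adjusted p 0.0414). Of 23 genes tested for nucleic acid sensing and interferon induction, Tlr3 among them, 6 had a log2 fold change above 0 (26.1%), and the median was -0.08. In that list Zc3h12a, Traf3 and Tnfaip3, which restrain or relay inflammatory signals, had log2 fold changes of -0.58, -0.42 and -0.33.

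Markers of the cells that the bone fraction could hold were read beside these values. Plasmacytoid dendritic cells, which make much of the body's type I interferon, stood at a median log2 fold change of 0.14 over 11 markers tested, with summed levels of 250 to 302 CPM after phlebotomy and 317 to 326 CPM in control. At an unadjusted p under 0.05, 0 of these markers were higher and 3 lower. The 3 were Pacsin1, Spib and Tcf4, with log2 fold changes of -1.09, -0.75 and -0.35. DESeq2 called Pacsin1 lower (adjusted p 0.0181), and edgeR without phlebotomy 2 called Pacsin1 and Spib lower (adjusted p 0.0339 and 0.0397). Siglech, a lectin that defines these cells, was at 10.4, 11.7 and 10.7 CPM after phlebotomy and at 9.96, 9.34 and 10.5 CPM in control, and so did not follow the members' order of libraries. Klk1 was near 0 in all libraries, at up to 0.898 CPM, and 1 of the 14 markers, Ptprcap, was at 0 throughout. Monocyte and macrophage markers had the members' order of phlebotomy libraries, with median centred log2 levels of 0.22, -0.19 and 0.16 in phlebotomy 1, 2 and 4 and -0.18, -0.09 and -0.12 in control 1, 2 and 4. Over 19 such markers the median log2 fold change was 0.36, 13 were above 0, and summed levels were 5390 to 6690 CPM after phlebotomy and 4680 to 7210 CPM in control. Adgre1, which encodes the macrophage surface protein F4/80, was at 172, 46.1 and 94.3 CPM after phlebotomy and at 43.1, 53.4 and 44.0 CPM in control (log2 fold change 1.15 ± 0.42 SE, edgeR adjusted p 0.253, and 0.0145 without phlebotomy 2). Csf1r, on the same cells, was at 101, 92.4 and 135 CPM after phlebotomy and at 95.2, 92.9 and 140 CPM in control (log2 fold change 0.00). Adgre1 thus followed the order of the interferon-stimulated genes and Csf1r did not. Ccr2 and Ly6c2, of inflammatory monocytes, each had a log2 fold change of 0.36 (SE 0.20 and 0.21). Over 12 osteocyte genes the median log2 fold change was -0.67, with summed levels of 13900 to 25100 CPM after phlebotomy and 23000 to 49100 CPM in control. DESeq2 called 2 of them, Fbln7 and Fam20c, lower.

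Several other marker lists ran opposite to the members across the phlebotomy libraries. Osteoblast and bone matrix markers had median centred log2 levels of -0.73, 0.24 and -0.42 in phlebotomy 1, 2 and 4 and 0.71, 0.22 and 0.09 in control 1, 2 and 4. Their median log2 fold change was -0.63 over 12 genes, of which edgeR without phlebotomy 2 called 8 lower, and their summed levels were 38800 to 70100 CPM after phlebotomy and 68300 to 104000 CPM in control. B cell markers stood at centred levels of -0.30, 0.09 and -0.37 after phlebotomy and 0.04, 0.19 and 0.34 in control, and DESeq2 called Cd22 lower (log2 fold change -1.05). Endothelial markers stood at -0.26, 0.17 and -0.34 after phlebotomy and 0.21, -0.06 and 0.16 in control. In all of these lists phlebotomy 2 was above phlebotomy 1 and 4. Summed levels were 249 to 342 CPM after phlebotomy and 307 to 399 CPM in control for B cell markers, and 649 to 847 CPM after phlebotomy and 704 to 839 CPM in control for endothelial markers.

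The median log2 fold change was 0.06 for neutrophil, 0.28 for erythroid and -0.14 for T and NK cell markers. Of the neutrophil markers, DESeq2 called 2 higher, the granule proteases Prtn3 and Ctsg (log2 fold change 1.18 and 1.25, adjusted p 0.00251 and 0.00186). Prtn3 was at 410, 212 and 321 CPM after phlebotomy and at 97.3, 138 and 181 CPM in control, and Ctsg at 417, 176 and 346 CPM after phlebotomy and 106, 131 and 159 CPM in control. Both had the members' order of phlebotomy libraries, with no overlap between groups. The neutrophil markers S100a8, S100a9 and Ly6g did not share this. Their log2 fold changes were 0.24, 0.33 and -0.18, their groups overlapped, and phlebotomy 4 was the lowest phlebotomy library in each. Of the erythroid markers DESeq2 called Car1 and Tfrc higher (log2 fold change 0.83 and 0.79, adjusted p 0.0123 and 0.0332). Summed levels were 29900 to 46000 CPM after phlebotomy and 21400 to 51600 CPM in control for neutrophil markers, and 21500 to 31400 CPM after phlebotomy and 14100 to 30900 CPM in control for erythroid markers. Control 1 was the lowest library in both lists. Control 2 and 4 stood at 36600 and 51600 CPM for neutrophil markers and at 25000 and 30900 CPM for erythroid markers. Summed levels of T and NK cell markers were 135 to 198 CPM after phlebotomy and 105 to 140 CPM in control. Ccl5 and Nkg7 held most of these levels, at 39.5 to 83.1 and 71.0 to 90.4 CPM after phlebotomy. Of the 12 genes tested in that list, 3 had a log2 fold change above 0. The part of these cell types in the members' values was not tested.

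**Figure D5:**
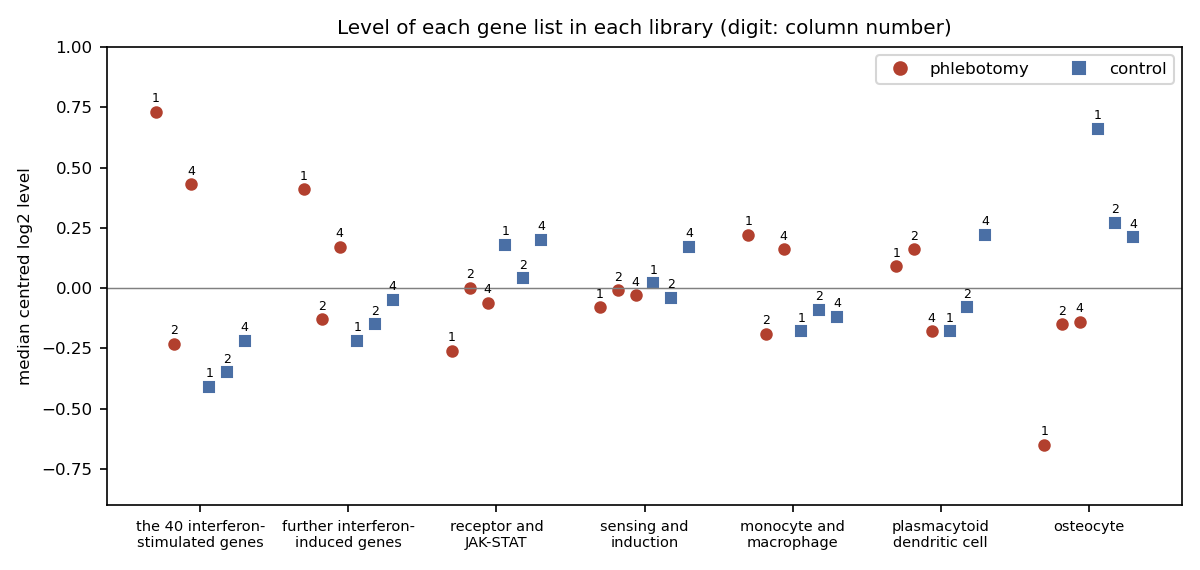
Median over the genes of each list of log2(CPM + 0.5) centred on each gene's mean, per library (digits are library numbers), with red circles for phlebotomy left of blue squares for control. The 40 members stand at 0.73, -0.23 and 0.43 in phlebotomy 1, 2 and 4 and at -0.41, -0.35 and -0.22 in control 1, 2 and 4, and the monocyte and macrophage markers show the same order in phlebotomy at a smaller scale.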

How the data were processed

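RNA was sequenced from 6 femur libraries. Per the labels' protocols, libraries were made with Nextera XT, which does not mark strand, and read at 126 bases paired-end. The submitters' processing notes name STAR 2.7.3a and 2.5.2a, DESeq2, edgeR and limma, and GRCm38.p3 and mm10. Which program counted the reads, and with what strand option, is not given in the sources used here. The authors deposited raw counts per gene, a copy filtered on low counts, and a scaled signal table, which holds CPM with TMM factors per the file's name.

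The initial P of a column was read as phlebotomy and N, by elimination, as control, which limits every comparison. Column numbers are 1, 2 and 4 while titles run from 1 to 3, so a column shows its group and not its sample.

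Rows that name no mouse gene (0.00278% to 0.0284% of counts) stayed out. The filterByExpr filter used a minimum count of 10. Counts were scaled with TMM and tested with the robust quasi-likelihood test of edgeR 4.0.16 (R 4.3.3), two-sided, with Benjamini-Hochberg adjustment over all genes and a threshold of 0.05. Each SE is an approximation derived from the F statistic. All levels were computed from the counts as TMM-scaled CPM, and levels per kb divide by GENCODE M21 transcript length. Counting limits cover counting error only. Alternatives were RLE scaling, other filters, no robust option, DESeq2 1.42.0, limma 3.58.1 (voom, and trend on the deposited values), a GC and length trend, the column number as a replicate block, and omission of each library in turn. DESeq2 without phlebotomy 2 was added after seeing the data. The edgeR step was tested on simulated data.

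Members, lists and tests were chosen with earlier results of these data known. All members may be named, and of each other list up to 4 genes by smallest p, all receptor genes, the interferon genes with counts and, for cell types, the markers used to name them. Some genes that this rule covers are left out of the text. Promoters are RefSeq's. Protein identity was not used here, and shared 126-base transcript windows took its place.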

Additional observations from a re-analysis of the deposited data

Results flagged for a closer look

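Phlebotomy 2, the library in which the interferon-stimulated genes stood near control levels, held 4288 counts on rows that name transgene or vector sequences and no mouse gene, which is 0.0284% of its counts. The other phlebotomy libraries held 441 and 441 such counts and the controls 380, 640 and 547. Most of the excess lay on the rows Neo (2288 counts in phlebotomy 2, at most 7 in another phlebotomy library and at most 12 in a control) and tg_EGFP (920 counts, at most 5 and at most 6). It drew attention because it is a signal outside the genes compared, above the level of the control libraries. All mice are labelled WT, and the source of these counts was not tested.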

How the results depend on the processing

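Of 40 members, 38 kept a log2 fold change above 0 under all 17 other settings, and the exceptions were Oas3 and Sp100, at -0.13 and -0.11 without control 1 (range when leaving out 1 library each -0.13 to 0.45 and -0.11 to 0.20). The members' median log2 fold change ranged from 0.46 (without phlebotomy 1) to 0.85 (without phlebotomy 2) over the fits that left out 1 library, and was 0.52 with limma-trend at a pseudocount of 1 and 0.71 after removal of a GC and length trend. The number of members called higher was 0 in the main test, 10 without the low-count filter (against 0.357% of genes), 9 with DESeq2, 0 to 24 when leaving out 1 library each, and 27 with DESeq2 without phlebotomy 2; the other settings called 0. Genes called in the other lists numbered 0 in the main test, 15 with DESeq2 and 0 to 35 when leaving out 1 library each. With column numbers as a replicate block, 0 members were called and the median log2 fold change was 0.63; same-numbered libraries did not deviate together (correlations of -0.11, -0.108 and -0.0616), so the numbers were not taken as a pairing. Depth limits the interferon genes themselves, which had at most 29 counts in a library. The cause of the differences between settings was not tested.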
